A study of Mus musculus with 9 samples.

Results

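Tendon and cartilage-type matrix genes were followed as 10 genes, Chad, Cilp, Cilp2, Comp, Fmod, Tnmd, Scx, Mkx, Thbs4 and Prg4, in RNA-seq of mouse stromal cells. They were chosen from the same values described here, because Chad and Cilp2 were high in FAPs and almost absent in ASCs. All 10 were found among the 26214 genes of the deposited table, and all 10 passed the filter (a mean value of 10 or more across the 8 libraries compared), as did 13601 genes in all. Scx and Mkx reached that mean through the muscle libraries, since neither exceeded a normalized value of 11.3 in an ASC library. The difference between ASCs and FAPs is what chose the genes, so it is given as a description with no test, and Chad and Cilp2 are given without a test in every comparison. Scx and Mkx are likewise given without a test against ASCs.

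The cells came from male C57Bl/6 mice (substrain J in the methods) aged 8 to 12 weeks, 1 day after injection into the right quadriceps. ASCs are stromal cells of the subcutaneous adipose tissue (ScAT) of NaCl-injected mice (3 libraries), FAPs are fibro-adipogenic progenitors of the NaCl-injected quadriceps (2 libraries), and injured FAPs are those of the quadriceps injected with glycerol, which damages the myofibers (3 libraries). All were sorted with magnetic beads as CD31-/CD45-/Sca-1+ cells, and CD31+CD45+ cells of the glycerol-injected quadriceps gave a single library, which is described without a test. The paper describes triplicates for each condition, and 2 FAP libraries were analysed here. The libraries of a cell type were made from a pool of cells of several animals. The p-values therefore measure only the spread between these libraries, and how much of it lies between animals cannot be told. Reads on genes numbered 27349184 to 27481573 per ASC library, 24052508 and 24164447 per FAP library, 26698572 to 27028114 per injured FAP library and 13091077 in the CD31+CD45+ library. The values below are normalized read counts, that is whole reads divided by a size factor for each library. A value of 3 reads, taken as the floor, is worth 2.29 to 4.71 depending on the library, which covers counting error only.

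The labels were checked against marker genes. Pdgfra, a receptor that marks FAPs and ASCs, was at 12988 in ASCs, 17755 in FAPs and 24051 in injured FAPs (group means). Ly6a, which encodes Sca-1, was at 44382, 13682 and 23491. Ptprc, which encodes CD45, was at 0 in both FAP libraries, at most 1.13 in ASCs and at 25.8 ± 26.0 (SD, n = 3) in injured FAPs. Pecam1, which encodes CD31, was at 46.4 to 83.0 in ASCs, at 195 and 0 in the FAP libraries and at 194 ± 73.8 (SD, n = 3) in injured FAPs. The selected markers were thus abundant in all 3 groups, and Ptprc and Pecam1 were low. Pecam1 held 205 reads in FAP replicate 1 and 0 in replicate 2, and the cause of this was not tested. Of the other endothelial genes, given below, Emcn, Cldn5 and Vwf were at 0 in both FAP libraries. Cdh5, Kdr and Tie1 were above every ASC library there, and Tek was below, so depletion is not read from the list as a whole.

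Tendon is built by tenocytes, which lay down parallel collagen fibrils under the control of the transcription factors Scleraxis (Scx) and Mohawk (Mkx). Tenomodulin (Tnmd) is a membrane glycoprotein of mature tenocytes. Fibromodulin (Fmod) and chondroadherin (Chad) are leucine-rich repeat proteins that bind collagen, and the cartilage intermediate layer proteins (Cilp, Cilp2), cartilage oligomeric matrix protein (Comp) and thrombospondin 4 (Thbs4) are secreted matrix glycoproteins of cartilage, tendon or both. Lubricin (Prg4) lubricates joint and tendon surfaces. In muscle, such genes are known from the connective tissue and from the junction between tendon and fibre.

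Scx and Mkx, the regulators of the group, were the least abundant. Scx (chromosome 15 of GRCm38, 76457452 to 76459458, plus strand) was at 9.22, 4.53 and 7.53 in the ASC libraries, at 597 and 582 in FAPs and at 329.5, 243 and 272 in injured FAPs. Mkx, a homeobox factor of chromosome 18, was at 3.95, 3.40 and 11.3 in ASCs, at 242 and 314 in FAPs and at 231, 224 and 214 in injured FAPs. Every FAP and injured FAP library thus lay above every ASC library for either factor, while FAPs and injured FAPs were close for Mkx. The mean in FAPs was 83.1 times that in ASCs for Scx and 44.8 times for Mkx, from ASC libraries that held 4 to 7 reads of Scx and 3 to 9 reads of Mkx. Without ASC replicate 3 the factor for Mkx was 75.7. Scx lies within an intron of Bop1, which is on the opposite strand, and the strand setting of the counting is not given in the sources used here. Bop1 was at 1130.3, 1077 and 815 in ASCs, at 732 and 685 in FAPs and at 1902, 1831 and 1854 in injured FAPs. Mkx shares 201 exonic bases with an annotated transcript on its own strand, which was not analysed here. Whether these neighbours add reads to Scx or Mkx was not tested.

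**Figure D1:**
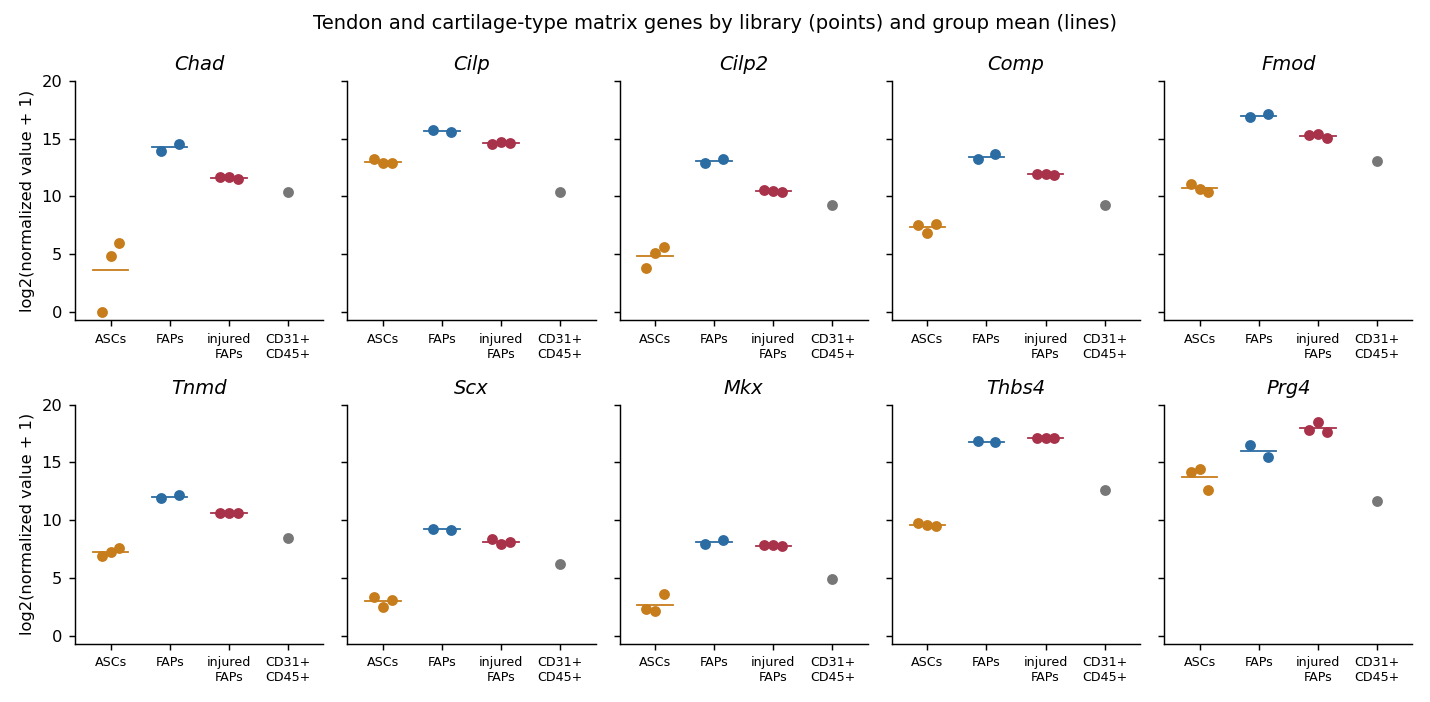
Normalized values of the 10 genes on the log2(value + 1) scale, with a point per library and a line at the group mean (ASCs 3, FAPs 2, injured FAPs 3 and CD31+CD45+ cells 1 library, the last without a line). Every FAP point lies above every ASC point, and Thbs4 and Prg4 alone have their highest points in injured FAPs.

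Chad and Cilp2 were the genes that led to the choice. Chad (chromosome 11, 94565047 to 94569127, plus strand) was at 0, 28.3 and 60.3 in the ASC libraries, at 16043 and 24619.5 in FAPs and at 3305, 3284 and 2975 in injured FAPs. Cilp2 (chromosome 8, 69880369 to 69887687, minus strand) was at 13.2, 34.0 and 49.0 in ASCs, at 7454 and 9853 in FAPs and at 1549.6, 1403 and 1371 in injured FAPs. For both genes the 3 groups did not overlap, and injured FAPs lay between the others. The ASC library without Chad held 0 reads, which allows a value of up to 3.95, and the other ASC libraries held 25 and 48 reads. The mean in FAPs was 689 times the mean in ASCs for Chad (1436 times without ASC replicate 3) and 270.1 times for Cilp2. Chad lies in an intron of Acsf2, which is transcribed from the opposite strand and was at 515, 470.0 and 492 in ASCs, at 855 and 949 in FAPs and at 489, 441 and 414 in injured FAPs. Whether reads of Acsf2 add to Chad was not tested.

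The 250 bases before the start of Chad and of Fmod are printed here because these leucine-rich repeat genes were both high in FAPs and lower after injury, and because the E-box, the motif CANNTG read by Scleraxis and other basic helix-loop-helix factors, is the element most often examined in tendon genes. The sequences are those of RefSeq on GRCm38.p6, read 5′ to 3′ on the strand of the gene, with the E-box in capitals. They span chr11:94564797-94565046 (Chad, plus strand) and chr1:134037004-134037253 (Fmod, plus strand).
Chad: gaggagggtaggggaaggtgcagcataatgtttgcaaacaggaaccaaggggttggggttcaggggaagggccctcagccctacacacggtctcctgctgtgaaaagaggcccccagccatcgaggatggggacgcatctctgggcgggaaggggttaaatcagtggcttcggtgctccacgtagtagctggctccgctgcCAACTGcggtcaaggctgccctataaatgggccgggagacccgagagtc
Fmod: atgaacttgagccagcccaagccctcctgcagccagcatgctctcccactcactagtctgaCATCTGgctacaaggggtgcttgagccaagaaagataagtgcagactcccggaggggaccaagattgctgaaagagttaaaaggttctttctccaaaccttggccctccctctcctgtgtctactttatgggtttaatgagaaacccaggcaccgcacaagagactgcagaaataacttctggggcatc
Each holds 1 E-box, which begins 49 bases before the start in Chad and 189 bases before it in Fmod. The table of promoters matched 6 of the 10 genes. In the same window Thbs4 held 1 E-box, Cilp held 3 and Tnmd, where 28 of the 250 bases lie in an annotated exon, held 0. The window of Cilp2 lies within an annotated exon over all 250 bases, so it is not read as a promoter here. CANNTG is its own reverse complement, so both strands are covered, and 66.2% of all 32851 promoters held it in a window of the same length. At least 1 match is thus common, while 12.2% of promoters held at least as many as the 3 of Cilp. A match describes the letters and not a bound site.

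Fmod was the most abundant of the genes in FAPs. Fmod (chromosome 1, 134037254 to 134048277, plus strand) was at 2221, 1646 and 1332 in ASCs, at 119690.1 and 144393 in FAPs and at 41123, 42501 and 33331 in injured FAPs. The 3 groups did not overlap, and the mean in FAPs was 76.2 times the mean in ASCs. Tnmd (X chromosome, 133850980 to 133865577, plus strand), the tenocyte membrane protein, was at 117, 149.5 and 192 in ASCs, at 3792 and 4542 in FAPs and at 1611, 1554 and 1586 in injured FAPs. It followed the same order of groups, with a FAP mean 27.2 times that of ASCs.

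Cilp had the smallest gap between FAPs and ASCs after Prg4. Cilp (chromosome 9, 65265180 to 65280605, plus strand) was at 9509, 7577 and 7571 in ASCs, at 55104 and 49673 in FAPs and at 24144, 26466 and 25677 in injured FAPs. Its mean in FAPs was 6.37 times that in ASCs, against 270.1 times for its paralog Cilp2. ASCs therefore held an appreciable amount of Cilp and very little Cilp2.

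The thrombospondins Comp and Thbs4 were both nearly a matter of muscle libraries, and they parted after injury. Comp (chromosome 8, 70373558 to 70382066, plus strand) was at 182, 114 and 195 in ASCs, at 9498 and 13274 in FAPs and at 3936, 3983 and 3724 in injured FAPs. Thbs4 (chromosome 13, 92751590 to 92794818, minus strand) was at 859, 777 and 719 in ASCs, at 115741 and 109172 in FAPs and at 144210, 145137 and 139813 in injured FAPs. The FAP mean was 69.6 times the ASC mean for Comp and 143 times for Thbs4. Comp was lowest in ASCs and highest in FAPs, whereas Thbs4 was highest in injured FAPs.

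Prg4, the lubricin gene, differed most of the 10 genes between the replicates of FAPs and of injured FAPs. Prg4 (chromosome 1, 150449412 to 150466165, minus strand) was at 18198, 22589 and 6419 in ASCs, at 92344 and 46732 in FAPs and at 231493, 367236 and 207288 in injured FAPs. The groups did not overlap, but the lower FAP library was only 2.07 times the highest ASC library, the smallest such gap of the 10 genes. At its 3′ end its exons share 204 bases with those of Tpr on the other strand, and the values of Tpr were 3379, 3647 and 3402 (ASCs), 2975 and 2802 (FAPs), and 5339, 5618 and 5332 (injured FAPs). Tpr was thus also higher after injury, at values far below those of Prg4, and what reads of Tpr add to Prg4 was not tested.

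Across the 10 genes, every FAP library lay above every ASC library for 10 of 10. The same held for 35.4% of the 13601 genes, and nothing is read from the count, or from the median below, since this contrast chose the genes. The median log2 difference of the 10 genes in ASCs against FAPs was -6.18 on the log2(value + 1) scale, beside 0.00 over all genes tested. On this scale Chad was at -10.68, which moved to -8.87 without ASC replicate 1, the library with no Chad read. In bulk RNA, fewer cells of a type and less RNA per cell cannot be told apart, and this holds for every difference given here.

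Reads on the 10 genes made up 0.0481% to 0.106% of the ASC libraries, 1.84% and 1.77% of the FAP libraries and 2.02% to 2.86% of the injured FAP libraries. Without Prg4 the FAP libraries held 1.43% and 1.57%, and the injured FAP libraries held 1.01% to 1.09%. The total of the group thus rose after injury when Prg4 was counted and fell when it was not.

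To compare the genes with each other, values were divided by the length of the annotated exons in kb (the union over transcripts). Per kb, the order in FAPs was Fmod (39940.0 ± 5284, SD, n = 2), Thbs4 (34192 ± 1412), Prg4 (16247 ± 7536), Cilp (12321 ± 903), Chad (12102 ± 3610.0), Comp (3838 ± 899.7), Tnmd (3079.9 ± 392), Cilp2 (2006 ± 393), Scx (294 ± 5.22) and Mkx (68.0 ± 12.4). The libraries of Prg4 and Cilp, of Cilp and Chad, and of Comp and Tnmd overlapped, so these neighbours were not separated beyond their spread. Among the 24918 genes with an annotated length, Fmod ranked 6, Thbs4 11 and Chad 55 in FAPs.

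In injured FAPs the order per kb began with Prg4 (62774 ± 20143, SD, n = 3) and Thbs4 (43494 ± 865), which ranked 2 and 5 among all genes. Fmod (11792 ± 1496), Cilp (5980.5 ± 278), Chad (1898 ± 110.1), Comp (1308 ± 46.4), Tnmd (1170.3 ± 21.1), Cilp2 (334 ± 22.1), Scx (140.4 ± 21.9) and Mkx (54.5 ± 2.10) followed in the order they had in FAPs, and no neighbours overlapped. In ASCs Prg4 (3676 ± 1954, SD, n = 3) and Cilp (1933 ± 263) led and overlapped, followed by Fmod (524 ± 136), Thbs4 (239 ± 21.3), Tnmd (113 ± 27.7) and Comp (55.1 ± 14.5). Chad, Cilp2, Scx and Mkx had means of 17.6 or less per kb in ASCs, and each of them overlapped the next.

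**Figure D2:**
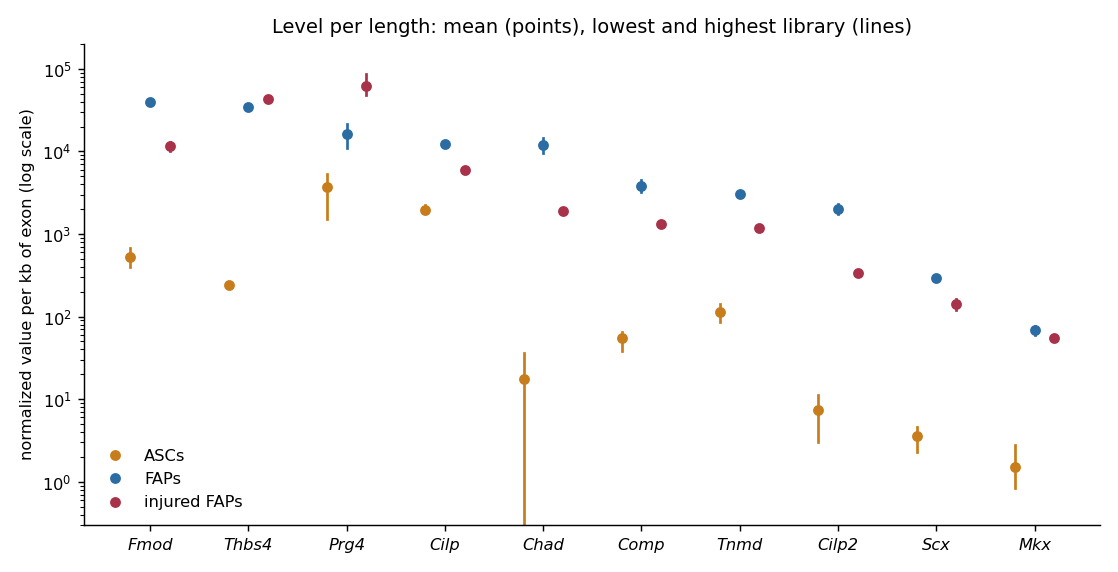
Normalized value per kb of exon on a log axis, ordered by the mean in FAPs, with points at the group mean (ASCs n = 3, FAPs n = 2, injured FAPs n = 3) and lines from the lowest to the highest library. The line of Chad in ASCs runs to the lower end of the axis because 1 library is at 0. Fmod and Thbs4 lead in FAPs, Prg4 and Thbs4 in injured FAPs, and Prg4 and Cilp in ASCs.

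The comparison of injured FAPs with FAPs asks what glycerol injury did within the muscle, and it shares its 2 FAP libraries with the contrast that chose the genes. Lower values after injury are therefore not independent of how the genes were chosen. Most of the tendon and cartilage-type genes were lower in injured FAPs, while lubricin rose. Of the 8 genes other than Chad and Cilp2, 5 fell (Cilp, Comp, Fmod, Tnmd and Scx) and 1 rose (Prg4), by limma on log2(value + 1), where a call needs a Benjamini-Hochberg adjusted p (13601 genes) below 0.05 and a log2 fold change of more than 0.58 in either direction. Over all genes 27.7% were lower and 24.9% higher in this comparison, which is the background of these counts. The median log2 fold change of the 8 genes was -1.06, beside -0.05 over all genes tested.

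Fmod had the largest fall of those tested (though not with quantile normalization, where Comp was at -1.72, Tnmd at -1.62 and Fmod at -1.33), to 29.5% of its mean in FAPs (log2 fold change -1.76, 95% interval -2.21 to -1.32, limma adjusted p = 3.25e-05). Comp fell to 34.1% (-1.53, interval -2.01 to -1.06, limma adjusted p = 1.26e-04) and Tnmd to 38.0% (-1.39, interval -1.79 to -0.99, limma adjusted p = 7.45e-05). Scx, the transcription factor, fell to 47.8% of its FAP mean (-1.07, interval -1.68 to -0.47, limma adjusted p = 0.00538). Cilp fell to 48.5% (-1.04, interval -1.33 to -0.75, limma adjusted p = 5.96e-05). For these 5 genes all 3 injured FAP libraries lay below both FAP libraries.

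Mkx, the other tendon transcription factor, was at 80.2% of its FAP mean and did not pass (-0.31, interval -1.18 to 0.57, limma adjusted p = 0.509), although its injured libraries all lay below the FAP libraries. Whether Mkx and Scx changed by different amounts was not tested. Thbs4 was at 127% of its FAP mean (0.35, interval 0.10 to 0.59, limma adjusted p = 0.0180), above both FAP libraries in 3 of 3 injured libraries but short of the fold threshold. With quantile normalization of the log2 values Thbs4 was called higher, at 0.72 (adjusted p = 7.00e-05, in a range of 7.00e-05 to 0.108 over the alternatives).

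Prg4 rose to 386% of its FAP mean (1.99, interval 0.89 to 3.08, limma adjusted p = 0.00487), with 3 of 3 injured libraries above both FAP libraries. The call rested on the lower FAP library. Without FAP replicate 2 the log2 fold change was 1.49 and the adjusted p 0.0659, the highest of the alternatives, which ranged from 6.47e-05 to 0.0659. With quantile normalization it was 3.08. Chad and Cilp2, which were picked as high in FAPs and are not tested, were at 15.7% and 16.7% of their FAP means, the lowest shares of the 10 genes.

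**Figure D3:**
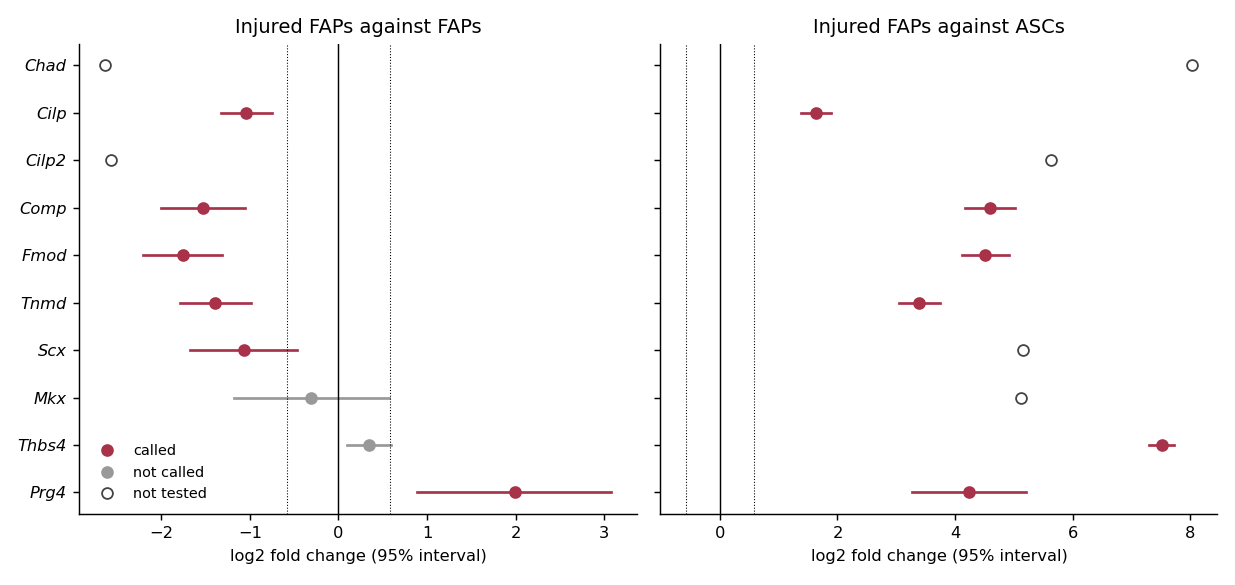
Log2 fold changes of injured FAPs against FAPs (left) and against ASCs (right), with 95% intervals from limma. Red points passed adjusted p and fold thresholds, grey points did not, and open points (Chad and Cilp2, and on the right also Scx and Mkx) carry no test. Dotted lines mark a log2 fold change of 0.58 in either direction. On the left 5 tested genes lie below the lower line and Prg4 above the upper line, and on the right the 6 tested genes lie above it.

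Injured FAPs were also compared with ASCs directly, which asks how far cells of the injured muscle differ from those of adipose tissue. Although most of these genes had fallen from the FAP level, the means of all 10 were above those of ASCs. The ratio of the means ran from 3.09 for Cilp to 182 for Thbs4. Scx and Mkx had ASC means under 10 and passed the filter through the muscle libraries, so they had to differ here and are not tested or counted. The other 6 genes were all higher in injured FAPs and 0 were lower, by limma, by edgeR, by DESeq2 and at an unadjusted p. Over all genes 25.0% were higher and 25.8% lower in this comparison. The median log2 fold change was 4.37 over the 6 genes and 0.02 over all genes tested. This comparison shares the injured FAP libraries with the one before it and the ASC libraries with the contrast that chose the genes. Values above those of ASCs are therefore not independent of how the genes were chosen, and the same holds for the count by each tool.

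Thbs4 had the largest difference of the 6 genes, with a mean in injured FAPs 182 times that in ASCs (log2 fold change 7.51, interval 7.29 to 7.73, limma adjusted p = 3.64e-11). Comp was 23.7 times higher (4.60, interval 4.17 to 5.02, limma adjusted p = 3.49e-08) and Fmod 22.5 times (4.51, interval 4.12 to 4.91, limma adjusted p = 2.97e-08). Prg4 was 17.1 times higher (4.24, interval 3.26 to 5.21, limma adjusted p = 1.31e-05) and Tnmd 10.4 times (3.39, interval 3.04 to 3.75, limma adjusted p = 7.36e-08). Cilp, already present in ASCs, differed least, by 3.09 times (1.64, interval 1.38 to 1.89, limma adjusted p = 9.18e-07). Each of the 3 injured FAP libraries lay above each of the 3 ASC libraries for these genes. With quantile normalization the log2 fold changes were 5.72 for Prg4, 5.24 for Fmod and 2.33 for Cilp. As values, the mean in injured FAPs was 108 times that in ASCs for Chad, 45.0 for Cilp2, 39.7 for Scx and 35.9 for Mkx. Without ASC replicate 3 it was 225 times for Chad and 60.7 times for Mkx.

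Other genes of tendon and cartilage were read from lists put together by what the genes are known to do. Earlier results of these data were known at that point, so the lists are not independent of the data. Among 13 regulators of tendon, 11 were tested and Gdf5 and Gdf7 were below the filter. Compared with FAPs, 7 were lower and 1 was higher in ASCs, where 23.8% and 23.4% of all genes were lower and higher. Etv4, an ETS factor downstream of FGF signalling, was at 16.5 in ASCs and 465 in FAPs (log2 fold change -4.72, standard error 0.22, limma adjusted p = 1.36e-07). Six2, a homeobox factor of developing tendon and muscle connective tissue, was at 14.1 and 153 (-3.38, standard error 0.29, limma adjusted p = 6.08e-06). Tgfb2, a ligand that induces Scx in embryonic tendon, was higher in ASCs (0.61, standard error 0.20, limma adjusted p = 0.0216), a call close to the fold threshold that was lost in 7 alternatives.

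In injured FAPs against FAPs, 4 of the 11 regulators fell, where 27.7% of all genes did, and 0 rose, also by edgeR, by DESeq2 and at an unadjusted p. Egr1, an immediate early factor that drives tendon collagen genes, fell from 162666 to 29665 (-2.47, standard error 0.20, limma adjusted p = 3.20e-06). Tppp3, a marker of the tendon sheath, fell from 14095 to 3995 (-1.83, standard error 0.19, limma adjusted p = 1.44e-05). Against ASCs, 4 regulators were higher and 4 lower in injured FAPs (25.0% and 25.8% of all genes), with Etv4 (399.9 against 16.5) and Six2 (188 against 14.1) the most raised. Egr1 (29665 against 138922, log2 fold change -2.22, or -1.24 with quantile normalization) and Tppp3 (3995 against 7568) were lower, the latter not with quantile normalization.

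The 19 genes of the tendon matrix list were all tested. In ASCs against FAPs 6 were lower and 7 higher, where 23.8% and 23.4% of all genes were. Keratocan (Kera), a leucine-rich repeat proteoglycan of cornea and tendon, was at 47.5 in ASCs and 7936 in FAPs (log2 fold change -7.34, standard error 0.16, limma adjusted p = 1.71e-09). Col11a1, a fibril-nucleating collagen, was at 17.1 and 2146 (-7.00, standard error 0.32, limma adjusted p = 1.13e-07). The abundant fibrillar collagens went the other way. Col3a1 was at 1092007 in ASCs and 484124 in FAPs (1.16, standard error 0.24, limma adjusted p = 0.00186) and Col1a2 at 848463 and 460493 (0.88, standard error 0.22, limma adjusted p = 0.00585). Neither collagen kept its call with quantile normalization, where Col3a1 was at 0.30 and Col1a2 turned to -0.12. When the third group was kept out of the limma fit, the calls were also lost, with unchanged log2 fold changes of 1.16 and 0.88 (limma adjusted p = 0.0517 for Col3a1 and 0.10 for Col1a2).

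In injured FAPs against FAPs 13 of the 19 tendon matrix genes fell and 2 rose, beside 27.7% and 24.9% of all genes. Osteomodulin (Omd), a keratan sulfate proteoglycan, fell from 704 to 137 (-2.37, standard error 0.19, limma adjusted p = 3.05e-06) and Col1a1 from 816596 to 270974 (-1.59, standard error 0.26, limma adjusted p = 3.85e-04). The fall of Col1a1 was not called with quantile normalization (-0.04). Tenascin C (Tnc), a glycoprotein of the myotendinous junction and of wounds, rose from 9747 to 38034 (1.96, standard error 0.27, limma adjusted p = 1.20e-04). Lysyl oxidase (Lox), which crosslinks collagen, rose from 20042 to 38481 (0.96, standard error 0.16, limma adjusted p = 4.73e-04). Against ASCs, 6 were higher and 10 lower in injured FAPs (25.0% and 25.8% of all genes). Tnc (38034 against 375) and Col11a1 (1493 against 17.1) were the most raised, and Omd (137 against 1279) and Col1a1 (270974 against 1408875) the most lowered, Col1a1 again not with quantile normalization (-0.14).

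Of 23 cartilage genes 15 were tested, and 8 were below the filter (Col9a1, Col10a1, Matn1, Hapln1, Ucma, Snorc, Mia and Ihh). In ASCs against FAPs 9 were lower and 4 higher (23.8% and 23.4% of all genes). The count is not read, because Acan, Col2a1, Col9a2 and Matn3 passed the filter through the muscle libraries and Col9a3 through the ASC libraries. Aggrecan (Acan), the large proteoglycan of cartilage, was at 0 in all 3 ASC libraries, at 142 ± 51.9 (SD, n = 2) in FAPs and at 181 ± 6.51 (SD, n = 3) in injured FAPs, which is at least 35.9-fold and 45.7-fold higher than the floor of 3 reads in an ASC library. Col11a2 was at 128 in ASCs and 1898 in FAPs (log2 fold change -3.86, standard error 0.20, limma adjusted p = 2.76e-07). The chondrogenic factors Sox9 (3398 against 1372, limma adjusted p = 1.01e-04) and Sox5 (573 against 238, limma adjusted p = 3.31e-05) were higher in ASCs. Sox6 (16.1 against 85.2) and Runx2 (113 against 285) were lower in ASCs, so the factors of the list did not move together.

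In injured FAPs against FAPs 9 of the 15 cartilage genes fell (8 by edgeR and by DESeq2) and 2 rose, beside 27.7% and 24.9% of all genes, and of these Runx3 passed the filter through the injured FAP libraries. Col11a2 fell from 1898 to 399 (-2.21, standard error 0.20, limma adjusted p = 8.17e-06) and Matn4, a matrilin, from 288 to 75.7 (-1.87, standard error 0.33, limma adjusted p = 5.67e-04). Runx2, the factor of hypertrophic cartilage and bone, rose from 285 to 1235 (2.11, standard error 0.14, limma adjusted p = 9.85e-07). Against ASCs 8 were higher and 5 lower (25.0% and 25.8% of all genes), a count with the same limit. Runx2 (1235 against 113) was among the raised, and Sox5 (144 against 573) and Sox9 (896 against 3398) were among the lowered. Many of these cartilage genes are low, and collagen type II (Col2a1) did not exceed 286 in any of the 8 libraries.

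Relatives of the 10 genes did not share one pattern. Of 11 relatives, 5 were lower and 2 higher in ASCs than in FAPs, 9 fell and 1 rose in injured FAPs against FAPs, and 2 were higher and 6 lower in injured FAPs against ASCs. Over all genes these shares were 23.8% and 23.4%, 27.7% and 24.9%, and 25.0% and 25.8%. Kera, Lum, Prelp, Omd and Cnmd also stand in the lists above. Thrombospondin 1 (Thbs1) rose after injury from 18226 to 44491 (1.31, standard error 0.20, limma adjusted p = 2.00e-04), unlike Comp. Thbs2 was at 16662 in ASCs and 10152 in FAPs (0.70, standard error 0.13, limma adjusted p = 0.00105), although its call was lost with 3 alternatives (0.00 with quantile normalization). Thbs3 was at 3242 in injured FAPs and 10008 in ASCs (-1.62, standard error 0.11, limma adjusted p = 5.97e-07). Chadl, the closest relative of Chad by name, fell from 228 to 59.4 (-1.92, standard error 0.22, limma adjusted p = 3.24e-05). Against ASCs, Kera (4225 against 47.5) and Thbs1 (44491 against 19925, log2 fold change 1.17, or 2.16 with quantile normalization) were the most raised in injured FAPs. Prelp was at 45256 in ASCs and 82546 in FAPs (-0.88, standard error 0.17, limma adjusted p = 0.00115).

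Among 12 genes of TGF-beta and IGF signalling and of proteases that cut these matrix proteins, 9 were higher and 2 lower in ASCs than in FAPs, beside 23.4% and 23.8% of all genes. The 9 include Mmp13 (6.59 against 0), which passed the filter through the injured FAP libraries, so the count of higher genes is not read. Stromelysin 1 (Mmp3) was at 16831 in ASCs and 805 in FAPs (log2 fold change 4.39, standard error 0.18, limma adjusted p = 7.30e-08). Tgfbr2, the TGF-beta type II receptor, was at 34108 and 12478 (1.45, standard error 0.10, limma adjusted p = 1.30e-06, and 0.68 with quantile normalization). Adamts7, a protease that cleaves COMP, was lower in ASCs, at 203 against 544 (-1.42, standard error 0.17, limma adjusted p = 6.26e-05), and so was Tgfb1, at 933 against 2111 (-1.22, standard error 0.19, limma adjusted p = 3.59e-04).

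In injured FAPs against FAPs 3 of these 12 genes rose and 4 fell, close to the shares of all genes (24.9% and 27.7%), and Mmp13, at 0 in both FAP libraries, passed the filter through the injured FAP libraries. Mmp3 rose from 805 to 3857 (2.28, standard error 0.18, limma adjusted p = 2.88e-06) and the aggrecanase Adamts4 from 6938 to 16420.3 (1.23, standard error 0.22, limma adjusted p = 5.96e-04). Adamts12, which also cleaves COMP, fell from 5835 to 2954 (-0.98, standard error 0.13, limma adjusted p = 8.58e-05), and Tgfbr2 fell from 12478 to 6529.6 (-0.93, standard error 0.10, limma adjusted p = 1.93e-05). Against ASCs 3 were higher and 6 lower (25.0% and 25.8% of all genes). The 3 include Mmp13 (45.1 against 6.59), which passed the filter through the injured FAP libraries, so the count of higher genes is not read. Tgfb1 (2544 against 933) and Adamts7 (342 against 203) were raised, the latter not with quantile normalization. Tgfbr2 (6529.6 against 34108, log2 fold change -2.38, or -1.70 with quantile normalization) and Mmp3 (3857 against 16831) were lowered.

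**Figure D4:**
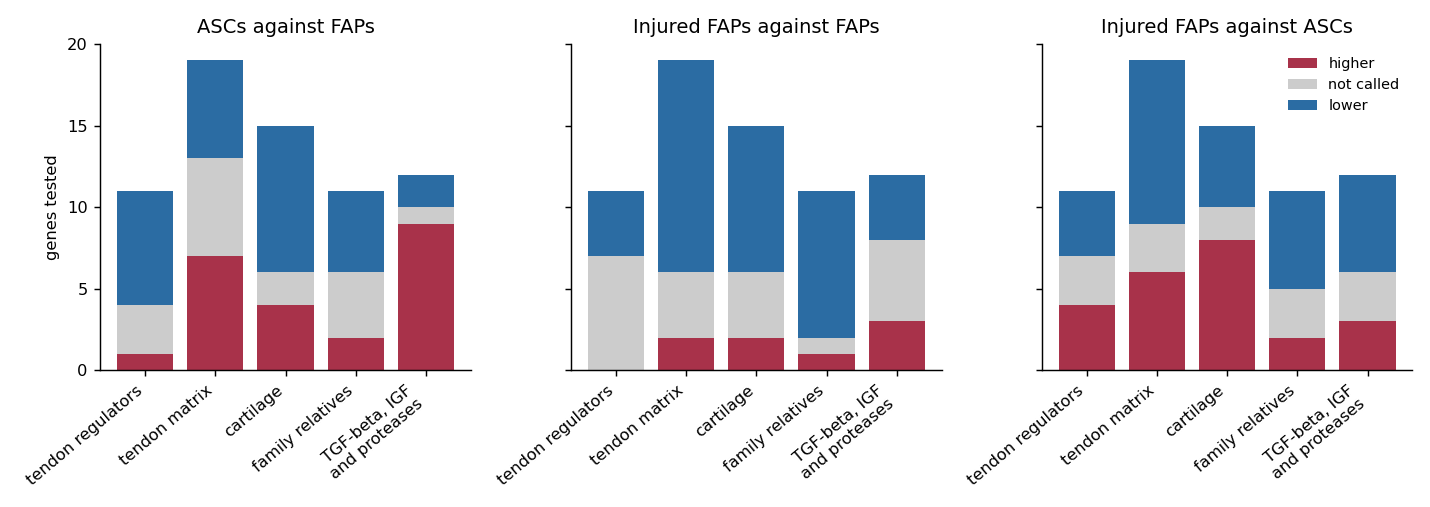
Number of genes tested in each list that were higher (red), lower (blue) or not called (grey) in the first-named group, for the 3 comparisons. The cartilage and tendon matrix lists fall mostly in injured FAPs against FAPs (9 of 15 and 13 of 19 lower, beside 27.7% of all genes) and hold genes of both directions in the comparisons with ASCs.

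The genes whose pattern over the 8 libraries was most like that of Chad, by the smallest Euclidean distance of log2(value + 1) centred per gene among 10592 genes whose mean reached 100, were Wif1 (distance 2.34), Uts2r (4.18), Cilp2 (4.60), Kera (5.71) and Col22a1 (5.89). For Cilp2 they were Uts2r (1.58), Ptx4 (2.08), Kera (2.23), Comp (2.74) and Meox1 (2.82). Uts2r and Kera stood near both. Wif1, an inhibitor of Wnt ligands, was at 0, 3.40 and 15.1 in ASCs and at 2878 and 3468 in FAPs. Scx (rank 6) and Fmod (rank 7) also came close to Cilp2, whereas Chad itself stood at rank 45 from Cilp2, Cilp at rank 197 and Prg4 at rank 266. This distance is a description and rests in part on the 0 of Chad in an ASC library.

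The 2 FAP libraries differed in these genes. Chad in FAP replicate 2 was at 153% of its value in replicate 1, Comp at 139.7%, Kera at 138%, Cilp2 at 132%, Mkx at 129.6%, Fmod at 121% and Tnmd at 119.8%. Cilp (90.1%), Thbs4 (94.3%) and Scx (97.5%) were slightly lower in replicate 2, and Prg4 was at 50.6%. Over 10593 genes whose mean reached 100, the log2 ratio of replicate 2 to replicate 1 had a median of -0.01 and ran from -0.33 to 0.40 between percentiles 5 and 95. Chad (0.62), Comp (0.48) and Kera (0.46) lay above that range and Prg4 (-0.98) below it. Cilp2 (0.40), Mkx (0.37), Fmod (0.27) and Tnmd (0.26) were in its upper part. Among injured FAP libraries the highest value was at most 1.35 times the lowest for the 9 genes other than Prg4, where it was 1.77 times. Part of the fold changes against FAPs thus rests on 2 libraries whose ratios for Chad, Comp, Kera and Prg4 lay outside that range.

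Markers of other cells that a muscle sample may hold moved with some of these results. The 10 muscle fibre genes summed to 158, 119 and 159 in ASCs, 919 and 1083 in FAPs and 318, 343 and 265 in injured FAPs, with Tnnt3 the most abundant over the 8 libraries and none at 0 in a whole group. Of the 8 tested, 5 were lower in injured FAPs than in FAPs. The 5 smooth muscle and pericyte genes summed to 969.6, 668 and 498 in ASCs, 18544 and 16164 in FAPs and 8097, 7759.9 and 8229 in injured FAPs, with Cspg4 the most abundant over the 8 libraries. All 5 were lower in ASCs and 4 were lower in injured FAPs, in each case compared with FAPs. Over all genes 23.8% were lower in ASCs and 27.7% in injured FAPs, which also holds beside the counts of marker genes below. These lists moved in the direction of Chad, Cilp2 and Fmod, and their part in the results was not tested.

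The 4 satellite cell genes summed to 5.27, 5.66 and 2.51 in ASCs, 65.6 and 128 in FAPs and 50.2, 38.7 and 35.8 in injured FAPs. Pax7, the most abundant over the 8 libraries, was at 0 in all ASC libraries, at 48.6 in FAPs and at 9.32 in injured FAPs, whereas Myod1 was at 2.89, 12.3 and 20.2 (group means). The 4 Schwann cell genes, led by Mbp, summed to 1097, 820.0 and 717 in ASCs, 899 and 1593 in FAPs and 630.0, 371 and 638 in injured FAPs, with 3 lower in ASCs and 2 lower in injured FAPs. The muscle fibre, satellite and Schwann cell sums were higher in FAP replicate 2, as were Chad, Cilp2, Comp, Fmod, Tnmd and Mkx. The smooth muscle sum was higher in replicate 1. The muscle fibre genes did not move together. Tnnt3 was at 254 in replicate 1 and 464 in replicate 2, where Myh4, Tnni2, Mylpf and Atp2a1 were also higher. Acta1 (271 and 246), Ckm (86.5 and 64.0), Myh1, Myh2 and Pvalb were lower in replicate 2. Whether cells of these types contribute to the difference between the 2 FAP libraries was not tested.

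The 8 endothelial genes, led by Tek, summed to 6475, 5153 and 6928 in ASCs, 5466 and 3620.2 in FAPs and 1481, 1582 and 1223 in injured FAPs, and Emcn, Cldn5 and Vwf were at 0 in both FAP libraries. The 7 leukocyte genes, led by Cd68, summed to 389.9, 361 and 346 in ASCs, 259.6 and 485 in FAPs and 434, 1853 and 352 in injured FAPs, and 5 of them were at 0 in both FAP libraries (Ptprc, Lyz2, Adgre1, Csf1r and Cd3e). Other genes of these lists were present in both FAP libraries, namely Tek (2120.5 and 1890.0), Cdh5 (1438 and 686), Kdr (1055 and 684), Tie1 (658 and 360.3) and Cd68 (254 and 477). Cdh5, Kdr and Tie1 were also above every ASC library, so the lists did not move as a whole. The 4 adipocyte genes, led by Plin1, summed to 113, 96.3 and 109 in ASCs, 15.2 and 21.6 in FAPs and at most 6.97 in injured FAPs. The 4 osteoblast genes (Bglap, Sp7, Ibsp and Dmp1) summed to at most 22.8 in any of the 8 libraries and none was tested. The 5 stromal genes, led by Dcn, summed to 485292, 399476 and 461326 in ASCs, 310477 and 292530.4 in FAPs and 157513, 157301 and 157370.2 in injured FAPs. After injury Dcn and Cd34 fell, Ly6a rose (13682 to 23491), and Pdgfra and Thy1 were not called.

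In the CD31+CD45+ cells of the injured muscle the 10 genes were present at lower values than in injured FAPs. Cilp2 (617) was at 42.8% of the mean of injured FAPs and Chad (1317) at 41.3%, followed by Scx (73.8, 26.2%), Fmod (8718, 22.4%), Tnmd (352, 22.2%), Comp (623, 16.1%) and Mkx (29.8, 13.4%). Cilp (1307) was at 5.14%, Thbs4 (6177) at 4.32% and Prg4 (3220.5) at 1.20%. The stromal markers Pdgfra, Dcn and Thy1 were at 0.496%, 3.34% and 16.9% in the same library, while Cd34 was at 149.8% and Ly6a at 75.2%. The median of the 10 genes was 19.1%, beside 16.9% for the 5 stromal markers and 88.0% over 10266 genes whose mean in injured FAPs reached 100. Relative to injured FAPs, all 10 genes thus stood higher in this library than Pdgfra and lower than Ly6a and Cd34. Comp, Mkx, Cilp, Thbs4 and Prg4 stood lower than Thy1, and Prg4 also lower than Dcn. With 1 library there is no replicate and no test of this.

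**Figure D5:**
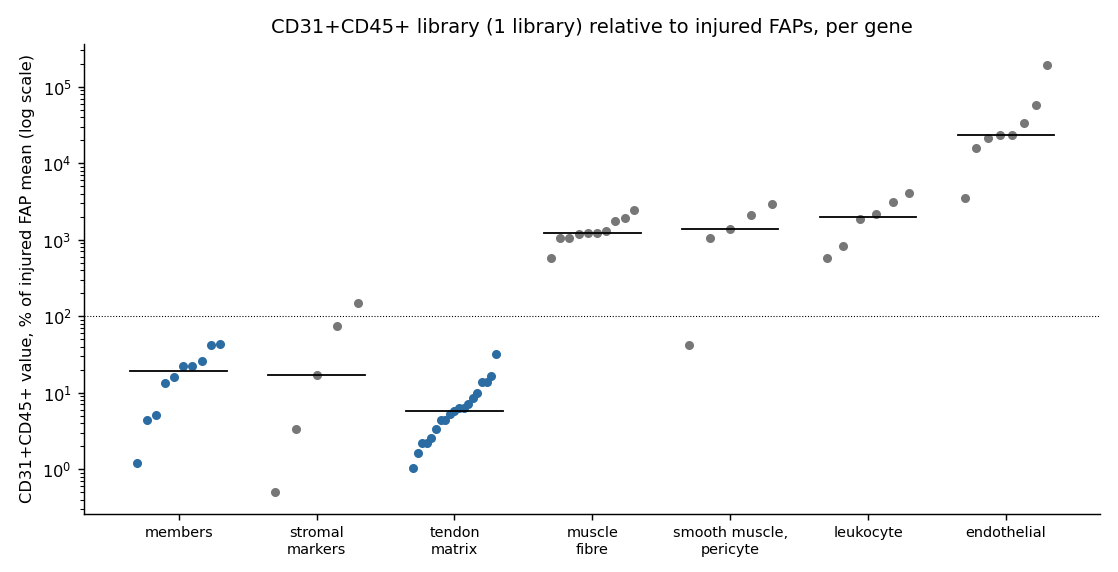
Value of single genes in the CD31+CD45+ library (1 library) as a percentage of the injured FAP mean, on a log axis, with a point per gene and a line at the median of the list. Genes at 0 are not drawn, and the dotted line marks 100%. The 10 genes lie between 1.20% and 42.8%, the tendon matrix genes between 1.03% and 32.1%, and the muscle fibre, leukocyte and endothelial genes above 100%.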

How the data were processed

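RNA of sorted cells was sequenced by BGI. The authors used HISAT2 (mm10) and featureCounts, and the deposited signal is a normalized count for each gene. Dividing out 1 factor per library gave whole reads (within 0.1 read) for 100.0% of the values in all 9 libraries, and 2 columns of the table were empty. The strand setting and the treatment of reads with several matches are not given in the sources used here. From the deposited values, log2(value + 1) was fitted with limma 3.58.1 in R 4.3.3, with a mean for each of the 3 groups, a trend in the prior variance, and 5 residual degrees of freedom. The filter kept 13601 genes (mean of 10 or more), over which p-values were adjusted by Benjamini-Hochberg. A call needs an adjusted p below 0.05 and a log2 fold change of more than 0.58 in either direction. On the recovered reads, edgeR 4.0.16 called 6450 genes for ASCs compared with FAPs, where DESeq2 1.42.0 called 6412 and limma 6416. After injury the same tools called 7303, 7227 and 7153 genes with FAPs as the reference, and 7000, 6865 and 6909 with ASCs as the reference. The methods were also run on simulated data, from which no result is given or used here. A planned test of Scx and Mkx in injured FAPs against ASCs was dropped after their values were seen, because the filter admitted them through the muscle libraries. The 10 genes and the gene lists were chosen with earlier results of these data known. Genes named in the lists are, among those called with a mean of at least 100, the 2 that rose most and the 2 that fell most in each list and comparison. Col2a1, Sox6 and Runx2 (in ASCs against FAPs), the genes that passed the filter through a single side, and single genes of the cell type lists were named after their values were seen. A planned gene of the leukocyte list is not reported here, and the sums of that list were computed without it. Exon lengths and positions are from GENCODE M21 (GRCm38). Alternatives changed the pseudocount, filter, scaling, use of unadjusted p, groups fitted and tool, blocked on replicate number, or dropped a library at a time.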

Additional observations from a re-analysis of the deposited data

Results flagged for a closer look

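The CD31+CD45+ library entered no comparison, and 88 genes (the 10 tendon and cartilage-type genes, the wider lists and the nearest profiles) were looked up in it for values above those of every ASC, FAP and injured FAP library, among genes with more than 3 reads in it and a mean of 10 or more over the other 8. None of the 10 genes stood above them, and 6 others did. Tcf15, the basic helix-loop-helix factor closest to Scx, was at 4452, against at most 159.9 in the NaCl libraries and 13.0 in injured FAPs. Tgfb1 was at 6809.7, against at most 2208 and 2732. Vtn, which encodes vitronectin, was at 2602, against at most 1784 and 747. Runx3 was at 210.3, against at most 5.27 and 50.4. Sox6 was at 122, against at most 94.1 and 65.9, and Col22a1, a collagen of the myotendinous junction, was at 254, against at most 223 and 219.7. These are values of a single library with no replicate and no test.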

How the results depend on the processing

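Over 19 alternatives, 14 tested values of the 10 genes (a gene in a comparison) gave 266 results, of which 264 kept their direction and their side of the threshold, 1 lost a call (Prg4) and 1 gained a call (Thbs4). Of 304 results of the 16 values without a test, 297 kept their direction and moved by less than 1 SD, 7 moved by more and 0 turned direction. Of 988 results of the other named genes, 17 lost a call and 1 turned direction, Col1a2 in ASCs against FAPs with quantile normalization (-0.12), and the cause of this was not tested. Members called higher in injured FAPs against FAPs numbered 2 with quantile normalization, which adds Thbs4, and 0 to 1 with a library left out, 0 without FAP replicate 2, and the cause was not tested. The median log2 difference of the 10 genes in ASCs against FAPs was -5.69 with a pseudocount of 8, which shrinks genes with low values. With a FAP library left out, the remaining one is assumed to vary like the other groups. Scaling to a common 75th percentile moved the median of all genes from 0.00 to -0.20 between ASCs and FAPs, from -0.05 to -0.15 between injured FAPs and FAPs and from 0.02 to 0.13 between injured FAPs and ASCs, and 37.2% of the genes called in ASCs against FAPs were then higher in place of 49.6%. Labels share replicate numbers without saying that they mark animals, and deviations of the 7 same-numbered pairs correlated at -0.05 to 0.04, so the numbers were not taken as pairs. With the replicate number as a block, 6287, 7046 and 6861 genes were called in the 3 comparisons, and 5 of the 8 tested genes were lower and 1 higher in injured FAPs against FAPs. Genes near 3 reads in ASCs, Scx and Mkx, are limited by depth.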

Other observations

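A gene at 0 reads in a library and at 10 or more reads in the other libraries of its group occurred 5 times in ASC replicate 1, where Chad was among them, and 7 times in ASC replicate 2. It occurred 28 times in FAP replicate 1 and 21 times in FAP replicate 2, where a single other library is compared, and 0 times in each injured FAP library. The single 0 of Chad in ASCs widened its standard error in the fit, which was 1.29 on the log2 scale in ASCs against FAPs, beside 0.40 for Cilp2 and 0.11 for Thbs4.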
